A study of Mus musculus with 1 sample.

Results

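The 28 genes described here encode proteins of cholesterol synthesis, uptake and transport, and were taken by symbol from the 22631 features of one single-cell library of fetal mouse testis. All 28 were present in the library. By role they comprised 18 enzymes of synthesis, 3 regulators of the pathway (*Srebf2*, *Insig1* and *Scap*) and 7 proteins of uptake, transport and storage (*Npc1*, *Npc2*, *Soat1*, *Abca1*, *Stard4*, *Lrp8* and *Apoe*). The library was the control of a study that deleted *Nr5a1* in Sertoli cells (SCs). It was made from the pooled testes of controls, 12 by its label, where the text of the study counts testes and not animals, so that the number of fetuses is not given. Its label gives E14.5 and the genotype WT, whereas the text of the study gives E13.5 and E14.5, and its methods describe the controls as *Nr5a1* L2/L2 fetuses, which carry loxP-flanked *Nr5a1* alleles without the Cre transgene, on a mixed C57BL/6 and 129/SvPass background. The mutant library was not analysed here. With 1 library there was no replicate of the animals, and no test was made. Each value is therefore a description of this library, and its 95% interval covers counting error only.

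Cholesterol is built in the cytosol and endoplasmic reticulum from acetyl-CoA through mevalonate, isoprenoid diphosphates, squalene and lanosterol. When sterols in the endoplasmic reticulum fall, the escort protein SCAP carries the transcription factor SREBP2, the product of *Srebf2*, to the Golgi, where it is cleaved and activates genes of synthesis and uptake, whereas INSIG1 holds the complex back when sterols are plentiful. Cells also take cholesterol from lipoproteins, release it from lysosomes through NPC1 and NPC2, store it as esters made by SOAT1 and export it through ABCA1. Fetal Leydig cells (LCs) use cholesterol as the substrate of androgen synthesis, whose first reaction is carried out in mitochondria by CYP11A1 after delivery by STAR.

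The library held 72595083 unique molecular indices (UMIs), each the tag of 1 captured RNA molecule, in 5421 barcodes, and 3820 cells with a median of 12129.5 UMIs were kept. Cells were clustered without the 27 genes of cholesterol metabolism that were among the 3000 most variable genes, so that the members did not shape the clusters. Genes of steroid and fatty acid synthesis, such as *Cyp11a1*, were not left out. Clusters were named from markers: 316 cells were Leydig-like, 854 Sertoli-like, 248 germ-like and 1346 interstitial-like. More than 2-fold higher levels than in the other cells were seen for 7 of 8 Leydig markers, 10 of 10 Sertoli markers, 9 of 9 germ cell markers and 8 of 8 interstitial markers in the class of that name. The same markers had named the clusters, so these counts describe the classes and do not test their names. The remaining kept cells were peritubular myoid (PTM)-like, coelomic epithelium-like, perivascular-like, immune-like, erythroid-like or rete testis-like, and 153 were left unnamed. The median depth per cell was 16150.5 UMIs in Leydig-like, 14321 in Sertoli-like, 36239.5 in germ-like and 9322 in interstitial-like cells. Levels are therefore given as UMIs of a gene per 1000000 UMIs of the class (CPM).

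Expression of the cholesterol synthesis genes was highest in Leydig-like cells. The 18 enzymes together made up 6711 CPM (6644 to 6778) in Leydig-like cells, that is 0.671% of all their UMIs, against 752 CPM (737 to 767) in Sertoli-like, 684 CPM (667 to 702) in germ-like and 854 CPM (838 to 869.9) in interstitial-like cells. The Leydig-like level was 8.92-fold (8.73 to 9.13) that of Sertoli-like, 9.81-fold (9.55 to 10.1) that of germ-like and 7.86-fold (7.7 to 8.02) that of interstitial-like cells. Per cell this came to 123 UMIs of synthesis genes in Leydig-like cells, 11.3 in Sertoli-like, 24.4 in germ-like and 8.49 in interstitial-like cells. Germ-like cells had the highest count of the other 3 classes and the lowest level, since their cells were the deepest. Every one of the 18 genes had its highest level in Leydig-like cells among the 10 named classes, and for each of them the interval of the Leydig-like level lay above that of the next of the 4 classes. Neither count was made over all genes. Among the other named classes the summed level ranged from 480.4 CPM (455 to 507) in coelomic epithelium-like cells to 1006 CPM (982 to 1029) in PTM-like cells.

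A gene was called higher or lower when its CPM differed at least 2-fold, over the 10380 genes with a mean of at least 5 CPM over the 4 classes. Of the 28 members 27 passed this minimum, and *Lrp8* did not. Against Sertoli-like cells, 22 of the 27 members were higher in Leydig-like cells, compared with 11.6% of all genes, and 0 were lower, compared with 17.7%. Against germ-like cells, 24 were higher, compared with 29.9% of all genes, and 1 was lower, compared with 22%. Against interstitial-like cells, 24 were higher, compared with 9.92% of all genes, and 0 were lower, compared with 16.6%. The synthesis enzymes accounted for 18, 17 and 18 of these higher calls, and their median log2 ratios were 3.15, 3.32 and 2.82, beside -0.19, 0.11 and -0.19 for all genes with UMIs in both classes. The exception was *Fdft1* against germ-like cells. The plot of members by class shows the levels on 1 axis.

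**Figure D1:**
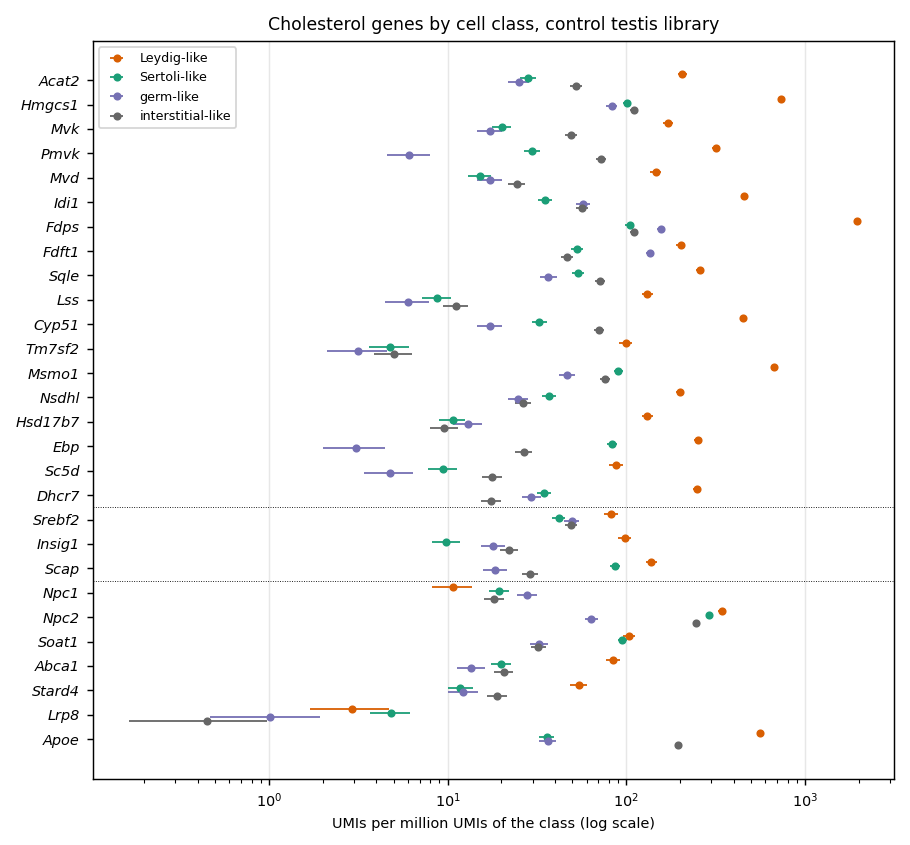
Level of each of the 28 cholesterol genes (UMIs per 1000000 UMIs of the class, log axis) in Leydig-like, Sertoli-like, germ-like and interstitial-like cells of the control library, with bars for exact Poisson 95% intervals and dotted lines between synthesis enzymes (top), regulators and the uptake, transport and storage genes (bottom). The Leydig-like point is the highest for all 18 enzymes and 3 regulators, and is the lowest of the 4 for Npc1.

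The upper part of the pathway, from acetyl-CoA to farnesyl diphosphate, was represented by 7 enzymes. *Acat2*, whose product joins 2 acetyl-CoA units, was at 206 CPM (195 to 218) in Leydig-like cells, 28.1 CPM (25.3 to 31.1) in Sertoli-like, 25 CPM (21.8 to 28.5) in germ-like and 52.2 CPM (48.4 to 56.3) in interstitial-like cells. Of these other 3 classes, interstitial-like cells stood nearest to Leydig-like cells for *Acat2*, at a ratio of 3.95-fold (3.59 to 4.34), and the intervals of Sertoli-like and germ-like cells overlapped. *Hmgcs1* encodes the HMG-CoA synthase of the cytosol. Its levels were 732 CPM (710.4 to 755) in Leydig-like cells, 101 CPM (95.6 to 107) in Sertoli-like, 82.8 CPM (77 to 89.1) in germ-like and 110.2 CPM (105 to 116) in interstitial-like cells, so that the other 3 classes lay close together.

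*Mvk*, *Pmvk* and *Mvd* encode the enzymes that turn mevalonate into isopentenyl diphosphate. *Mvk* was measured at 171 CPM (161 to 182) in Leydig-like cells, 20.2 CPM (17.8 to 22.8) in Sertoli-like, 17.3 CPM (14.7 to 20.3) in germ-like and 49.3 CPM (45.6 to 53.2) in interstitial-like cells. *Pmvk* was measured at 318 CPM (303 to 332), 29.7 CPM (26.7 to 32.8), 6.11 CPM (4.59 to 7.97) and 72.3 CPM (67.9 to 77) in the same order of classes. For *Mvd* the levels were 146 CPM (136 to 156), 15.2 CPM (13.1 to 17.5), 17.2 CPM (14.6 to 20.2) and 24.5 CPM (21.9 to 27.3). Among the 4 compared classes, interstitial-like cells came second for the 3 genes. Over all named classes, PTM-like cells came second for *Mvk* and *Mvd*. *Pmvk* separated Leydig-like from germ-like and Sertoli-like cells further than its neighbours in the pathway did, with a level 52-fold (39.7 to 69.4) that of germ-like cells, where 54 UMIs were counted, and 10.7-fold (9.59 to 12) that of Sertoli-like cells. The Leydig-like over Sertoli-like ratio was 8.49-fold (7.4 to 9.78) for *Mvk* and 9.61-fold (8.22 to 11.3) for *Mvd*. Over interstitial-like cells *Mvd* stood further apart, at 5.95-fold (5.23 to 6.78), than *Pmvk*, at 4.39-fold (4.06 to 4.75).

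*Idi1* encodes the isomerase that supplies dimethylallyl diphosphate, and *Fdps* the synthase of farnesyl diphosphate, from which sterols and other isoprenoids branch. *Idi1* was at 456 CPM (439 to 474) in Leydig-like cells, 35.1 CPM (31.9 to 38.5) in Sertoli-like, 57.3 CPM (52.4 to 62.5) in germ-like and 56.6 CPM (52.7 to 60.8) in interstitial-like cells. *Fdps* was at 1947 CPM (1911 to 1983) in Leydig-like cells, 105 CPM (99 to 110.3) in Sertoli-like, 157 CPM (149 to 166) in germ-like and 111 CPM (105 to 116) in interstitial-like cells. Among the 4 compared classes germ-like cells came second for both genes, with an interval that overlapped that of interstitial-like cells for *Idi1* but not for *Fdps*. Over all named classes, PTM-like cells came second for *Idi1*. The *Fdps* ratio was 18.6-fold (17.6 to 19.7) over Sertoli-like and 17.6-fold (16.7 to 18.6) over interstitial-like cells, and it was detected in 83.7% of Leydig-like cells after thinning to 5000 UMIs per cell, against 37.3% of Sertoli-like, 53% of germ-like and 37.1% of interstitial-like cells. Before thinning these shares were 93.7%, 67.1%, 97.2% and 50.1%. Summed over the 7 enzymes, the upper part was 11.9-fold (11.5 to 12.3) higher in Leydig-like than in Sertoli-like cells, 11-fold (10.6 to 11.4) higher than in germ-like and 8.35-fold (8.13 to 8.59) higher than in interstitial-like cells. The transcript ends of *Idi1* and *Fdps* match other loci of the genome closely (2 for *Idi1* and 5 for *Fdps*, none of them a feature of the matrix), and that of *Acat2* matches *Acat3*, which is a feature. *Fdps* also overlaps *Gm43738*, a feature of the matrix, on the same strand. Whether reads were shared with these copies or with *Gm43738* was not tested.

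The lower part of the pathway, from squalene to cholesterol, was represented by 11 enzymes. *Fdft1* encodes squalene synthase, which commits farnesyl diphosphate to sterols. It was at 202 CPM (190.3 to 214) in Leydig-like cells, 52.9 CPM (49 to 57.1) in Sertoli-like, 136 CPM (129 to 144) in germ-like and 46.6 CPM (43 to 50.4) in interstitial-like cells. Germ-like cells thus reached 2.92-fold (2.65 to 3.22) the interstitial-like level, and the Leydig-like level was only 1.48-fold (1.37 to 1.61) that of germ-like cells, the only one of the 54 ratios of a synthesis gene to another class that stayed under 2-fold. *Fdft1* lies at chr14:63145150-63179578 on the minus strand of GRCm38 and overlaps *Ctsb* on the opposite strand. *Sqle* encodes squalene epoxidase, and it was at 260.1 CPM (247 to 274) in Leydig-like, 53.8 CPM (49.8 to 57.9) in Sertoli-like, 36.7 CPM (32.8 to 40.9) in germ-like and 71.2 CPM (66.8 to 75.9) in interstitial-like cells. *Lss* encodes lanosterol synthase, which closes the sterol rings. Its levels were 131 CPM (122 to 141), 8.72 CPM (7.18 to 10.5), 6 CPM (4.49 to 7.85) and 11.1 CPM (9.42 to 13.1) in the same order, with overlapping intervals for neighbours in the last 3 classes.

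The next enzymes act on lanosterol and its products, from which methyl groups are removed. *Cyp51*, the lanosterol demethylase, was at 448 CPM (431 to 466) in Leydig-like cells, 32.7 CPM (29.6 to 36) in Sertoli-like, 17.2 CPM (14.6 to 20.2) in germ-like and 70.1 CPM (65.7 to 74.7) in interstitial-like cells, a ratio of 26.1-fold (22.1 to 30.9) over germ-like but 6.39-fold (5.93 to 6.9) over interstitial-like cells. *Tm7sf2*, a sterol reductase, was at 99.2 CPM (91.3 to 108), 4.75 CPM (3.63 to 6.1), 3.17 CPM (2.11 to 4.58) and 5.01 CPM (3.88 to 6.36). The intervals of its levels in the other 3 classes overlapped, although its germ-like level was 0.633-fold (0.392 to 0.998) that of interstitial-like cells. Its Leydig-like over Sertoli-like ratio of 20.9-fold (16 to 27.7) was the largest of the synthesis genes, although it shares a stretch of the same strand with *Vps51*. *Msmo1*, a methylsterol monooxygenase, was at 674 CPM (653 to 696), 90.2 CPM (85.1 to 95.5), 46.7 CPM (42.3 to 51.5) and 76 CPM (71.4 to 80.8) in the 4 classes. For *Msmo1* the order was Leydig-like, Sertoli-like, interstitial-like and germ-like cells, without overlap between neighbours.

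*Nsdhl* and *Hsd17b7* encode the dehydrogenase and the ketoreductase that complete the demethylation. *Nsdhl* was at 200.5 CPM (189 to 212) in Leydig-like cells, 37 CPM (33.8 to 40.5) in Sertoli-like, 24.9 CPM (21.7 to 28.4) in germ-like and 26.5 CPM (23.8 to 29.4) in interstitial-like cells. *Hsd17b7* was at 131 CPM (122 to 141), 10.7 CPM (8.95 to 12.6), 13 CPM (10.7 to 15.6) and 9.57 CPM (7.98 to 11.4), and its Leydig-like level was 12.3-fold (10.2 to 14.9) that of Sertoli-like cells, where *Nsdhl* reached 5.41-fold (4.86 to 6.03). *Ebp* encodes the sterol isomerase that moves the ring double bond. *Ebp* was at 252 CPM (239 to 265) in Leydig-like cells, 83.4 CPM (78.5 to 88.6) in Sertoli-like, 3.06 CPM (2.01 to 4.45) in germ-like and 26.7 CPM (24 to 29.6) in interstitial-like cells. It had the smallest ratio of the synthesis genes over Sertoli-like cells, 3.02-fold (2.79 to 3.27), and the largest over germ-like cells, 82.4-fold (56.4 to 125), and Sertoli-like cells exceeded germ-like cells 27.3-fold (18.7 to 41.6).

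*Sc5d* encodes the desaturase, and *Dhcr7* the dehydrocholesterol reductase, of the final steps. *Sc5d* was at 87.5 CPM (80.1 to 95.4) in Leydig-like cells, 9.42 CPM (7.81 to 11.3) in Sertoli-like, 4.75 CPM (3.43 to 6.43) in germ-like and 17.7 CPM (15.5 to 20.1) in interstitial-like cells. *Dhcr7* was at 249 CPM (236 to 262), 34.6 CPM (31.5 to 38), 29.5 CPM (26.1 to 33.3) and 17.6 CPM (15.4 to 20). The genes differed in which class came last, germ-like cells for *Sc5d* and interstitial-like cells for *Dhcr7*. Summed over the 11 enzymes, the lower part was 6.54-fold (6.34 to 6.74) higher in Leydig-like than in Sertoli-like cells, 8.51-fold (8.18 to 8.86) higher than in germ-like and 7.23-fold (7.01 to 7.47) higher than in interstitial-like cells. *Fdps* alone made up 1947 of the 3976 CPM of the upper part in Leydig-like cells. The median ratio over single genes was 9.61, 8.84 and 5.95 for the upper part in the same order of classes. For the lower part it was 7.47, 14.4 and 8.87, so it was the larger over germ-like and interstitial-like cells.

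Among Sertoli-like, germ-like and interstitial-like cells the summed levels lay close together. The summed synthesis level of Sertoli-like cells was 1.1-fold (1.06 to 1.14) that of germ-like and 0.88-fold (0.857 to 0.905) that of interstitial-like cells. Germ-like cells had the lowest level of the 4 classes for 12 of the 18 enzymes, whereas Sertoli-like and interstitial-like cells did for 3 each. The lowest class was not counted over all genes. Low germ-like levels were common among them, at least 2-fold below Leydig-like cells for 29.9%, Sertoli-like for 30.9% and interstitial-like for 31.3%. Against interstitial-like cells, 6 enzymes (*Acat2*, *Mvk*, *Pmvk*, *Cyp51*, *Ebp* and *Sc5d*) were at least 2-fold lower in germ-like cells, compared with 31.3% of all genes, and 1 was higher, which was *Fdft1*, compared with 18.4%. Against interstitial-like cells, Sertoli-like cells had 3 enzymes at least 2-fold lower, namely *Mvk*, *Pmvk* and *Cyp51*, compared with 13.3% of all genes, and 1 higher, *Ebp*, compared with 15.1%. The counts of lower enzymes were thus near the shares of all genes, and those of higher enzymes were below them. For 12 of the 18 enzymes at least 1 pair of neighbours in the order of levels had overlapping intervals. Such overlap was not counted over all genes.

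RNA released from broken cells can place UMIs of Leydig genes into other droplets. *Cyp11a1*, *Cyp17a1* and *Insl3*, which mark LCs, were in the other 3 classes at 0.0466% to 0.199% of their Leydig-like level. *Star* and *Hsd3b1* were at 0.801% and 0.847% in Sertoli-like cells and below that in germ-like and interstitial-like cells. The synthesis enzymes ranged from 1.21% of the Leydig-like level for *Ebp* in germ-like cells to 67.5% for *Fdft1* in germ-like cells. All 54 values were above the share of each of these 5 Leydig genes. Of the other Leydig markers, *Cyp11b1* was at 73.7 CPM in Leydig-like cells and at most 0.233 CPM in the other 3 classes. *Mc2r* was at 30.1 CPM in Leydig-like and 1.87 CPM in interstitial-like cells. *Hsd3b6* was at 0.861 CPM in Leydig-like and 0.7 CPM in Sertoli-like cells. The shares of *Mc2r* and *Hsd3b6* in these classes were thus above those of some enzymes. The part that free RNA had in the enzyme levels of the other classes was not tested.

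The 3 regulators were also highest in Leydig-like cells among all named classes, with smaller ratios for *Srebf2* than for nearly all enzymes. *Srebf2* was at 82.3 CPM (75.1 to 90.1) in Leydig-like cells, 41.9 CPM (38.4 to 45.6) in Sertoli-like, 49.5 CPM (44.9 to 54.3) in germ-like and 49.1 CPM (45.4 to 53) in interstitial-like cells. None of its ratios reached 2-fold, and they were 1.97-fold (1.73 to 2.23), 1.66-fold (1.46 to 1.9) and 1.68-fold (1.49 to 1.89) over the other classes in that order. Over Sertoli-like cells the call depended on the processing: in 5 of 13 alternative settings of the filters, clustering and scaling the *Srebf2* ratio was above 2-fold. *Insig1*, itself a target of SREBP2, was at 98 CPM (90.1 to 106), 9.81 CPM (8.17 to 11.7), 18 CPM (15.3 to 21) and 22 CPM (19.6 to 24.7) in the 4 classes, and all 3 ratios exceeded 2-fold, from 4.45-fold (3.86 to 5.13) over interstitial-like to 9.99-fold (8.23 to 12.2) over Sertoli-like cells. *Scap* was at 138 CPM (129 to 148) in Leydig-like, 86.5 CPM (81.5 to 91.8) in Sertoli-like, 18.4 CPM (15.7 to 21.5) in germ-like and 28.9 CPM (26.1 to 31.9) in interstitial-like cells. Sertoli-like cells came second for *Scap*, and the Leydig-like level exceeded theirs only 1.59-fold (1.45 to 1.75).

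The windows of 250 bases before the RefSeq gene starts (GRCm38.p6) were searched for letters known from sterol-regulated promoters, because the enzymes moved together. Of the 28 members 23 had a sequence, with 31 windows between them, and *Fdps*, *Fdft1*, *Sqle*, *Npc1* and *Stard4* had none. The motifs, searched on both strands, were TCACCCCA and CACCCCAC, which are forms of the sterol regulatory element and can overlap each other, and CCAAT, the core bound by NF-Y. The pentamer CCAAT was in 14 of the 18 windows of synthesis enzymes, or 77.8%, compared with 33.8% of all 32851 windows and 35.8% of those of genes over the CPM minimum. *Pmvk* and *Dhcr7* each had more than 1 of these 18 windows, so the windows do not stand for 18 enzymes. TCACCCCA was in windows of *Hmgcs1*, *Srebf2* and *Apoe*, that is 9.68% of the member windows and 1.34% of all windows. CACCCCAC was in those of *Hmgcs1* and *Acat2*, that is 6.45% and 2.58%. These matches are letters in the genome and no measurement of binding. The stretches that hold them are shown for the 4 genes with either element and for *Mvd* and *Lss*, chosen as enzymes with CCAAT alone, on the strand of each gene. Capitals mark the matches, with ATTGG for CCAAT on the other strand.
Hmgcs1, chr13:119690101-119690330, plus strand: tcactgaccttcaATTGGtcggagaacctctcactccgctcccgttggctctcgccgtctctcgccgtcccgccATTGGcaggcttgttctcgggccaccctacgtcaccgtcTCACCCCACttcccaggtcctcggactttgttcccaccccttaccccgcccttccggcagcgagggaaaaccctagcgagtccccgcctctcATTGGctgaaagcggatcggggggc
Srebf2, chr15:82147087-82147158, plus strand: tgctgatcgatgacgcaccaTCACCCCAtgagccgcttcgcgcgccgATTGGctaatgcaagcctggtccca
Acat2, chr17:12960879-12960926, minus strand: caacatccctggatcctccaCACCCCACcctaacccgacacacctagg
Apoe, chr7:19699374-19699421, minus strand: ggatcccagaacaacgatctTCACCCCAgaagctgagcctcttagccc
Mvd, chr8:122443425-122443502, minus strand: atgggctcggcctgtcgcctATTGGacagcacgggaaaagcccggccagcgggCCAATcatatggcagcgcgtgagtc
Lss, chr10:76531523-76531567, plus strand: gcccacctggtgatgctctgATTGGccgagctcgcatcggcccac
In *Hmgcs1* the overlapping TCACCCCA and CACCCCAC stand between CCAAT matches on the other strand. *Apoe* and *Hmgcs1* both carry TCACCCCA, and both were higher in Leydig-like cells than in each of the 3 other classes, whereas *Srebf2*, which carries it too, did not reach 2-fold. Either element was in 2 of the 18 windows of synthesis enzymes, or 11.1%, compared with 3.39% of all windows. Whether it bears on the levels was not tested.

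The genes of uptake, transport and storage did not follow 1 pattern. Of the 6 over the CPM minimum, 3 were at least 2-fold higher in Leydig-like than in Sertoli-like cells, compared with 11.6% of all genes, 5 than in germ-like cells, compared with 29.9%, and 4 than in interstitial-like cells, compared with 9.92%. Against germ-like cells 1 was lower, which was *Npc1*, compared with 22% of all genes, and 0 were lower against the other 2 classes, compared with 17.7% and 16.6%. *Stard4* alone of the 7 was highest in Leydig-like cells among all 10 named classes. *Stard4* encodes a soluble carrier that moves sterol between membranes. It was at 54.3 CPM (48.4 to 60.6) in Leydig-like cells, 11.8 CPM (10 to 13.9) in Sertoli-like, 12.2 CPM (10 to 14.8) in germ-like and 19 CPM (16.7 to 21.5) in interstitial-like cells, that is 4.59-fold (3.77 to 5.6), 4.44-fold (3.56 to 5.58) and 2.86-fold (2.42 to 3.39) lower in these 3 classes than in Leydig-like cells.

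NPC1 and NPC2 act one after the other in letting cholesterol out of lysosomes, yet their genes were distributed differently. *Npc1* was at 10.7 CPM (8.19 to 13.7) in Leydig-like cells, 19.5 CPM (17.1 to 22) in Sertoli-like, 27.8 CPM (24.5 to 31.5) in germ-like and 18.3 CPM (16.1 to 20.7) in interstitial-like cells. It was the only member lowest in Leydig-like cells of the 4 classes, with intervals below those of the other 3, and its Leydig-like level was 0.384-fold (0.285 to 0.509) that of germ-like cells. *Npc1* overlaps *Rmc1* on the opposite strand, and 62 UMIs of *Npc1* were counted in Leydig-like cells. *Npc2* was at 342 CPM (328 to 358) in Leydig-like cells, 289 CPM (280.0 to 299) in Sertoli-like, 63.8 CPM (58.7 to 69.3) in germ-like and 246 CPM (238 to 255) in interstitial-like cells. Germ-like cells stood apart with the lowest level of *Npc2*, and the Leydig-like level was just 1.18-fold (1.12 to 1.25) that of Sertoli-like cells. The highest level of *Npc2* was in immune-like cells, at 711 CPM (643 to 783).

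*Soat1*, the enzyme that esterifies cholesterol for storage, was at 104 CPM (95.7 to 112) in Leydig-like and 95.1 CPM (89.8 to 101) in Sertoli-like cells, whose intervals overlapped, and at 32.7 CPM (29 to 36.7) in germ-like and 32.3 CPM (29.3 to 35.5) in interstitial-like cells. Leydig-like and Sertoli-like cells were thus both about 3-fold above the other pair, with ratios of 3.22-fold (2.84 to 3.65) and 2.95-fold (2.64 to 3.3) over interstitial-like cells. *Abca1*, the exporter of cholesterol to apolipoproteins, was at 84.1 CPM (76.8 to 91.9) in Leydig-like cells, 20 CPM (17.6 to 22.6) in Sertoli-like, 13.6 CPM (11.3 to 16.2) in germ-like and 20.6 CPM (18.3 to 23.2) in interstitial-like cells. Its ratio over Sertoli-like cells, 4.2-fold (3.61 to 4.91), was close to that over interstitial-like cells, 4.08-fold (3.51 to 4.74). The 29 named rete testis-like cells had the highest *Soat1*, at 159 CPM (123 to 202), and the 37 immune-like cells the highest *Abca1*, at 123 CPM (96.3 to 156), with an interval above that of Leydig-like cells.

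*Apoe*, the lipoprotein component, was at 562 CPM (542 to 581) in Leydig-like cells, 35.9 CPM (32.7 to 39.3) in Sertoli-like, 36.3 CPM (32.5 to 40.5) in germ-like and 196 CPM (189 to 204) in interstitial-like cells. Interstitial-like cells thus stood between, 2.86-fold (2.72 to 3.02) below Leydig-like cells. Immune-like cells held 11495 CPM (11219.8 to 11775), rete testis-like cells 887 CPM (798 to 983) and coelomic epithelium-like cells 360.4 CPM (338 to 383). The part that free RNA of immune cells had in the low *Apoe* levels of other classes was not tested. *Lrp8*, a receptor for apolipoprotein E and reelin, was the one member under the CPM minimum. Its levels were 2.93 CPM (1.71 to 4.69) in Leydig-like, 4.83 CPM (3.7 to 6.19) in Sertoli-like, 1.02 CPM (0.466 to 1.93) in germ-like and 0.448 CPM (0.165 to 0.976) in interstitial-like cells, with overlapping intervals between neighbours, and its highest level was 19.1 CPM (9.54 to 34.2) in immune-like cells. The map of the 7 genes over the named classes sets these levels side by side.

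**Figure D2:**
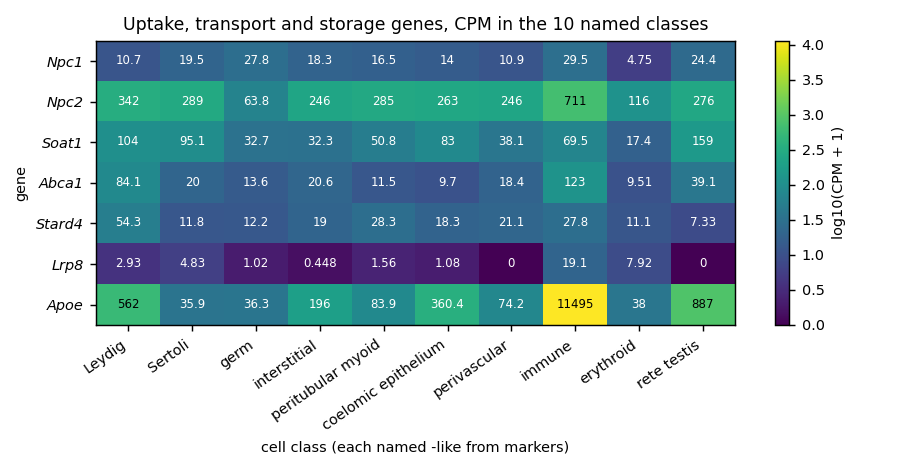
Levels of the 7 uptake, transport and storage genes (rows) in the 10 named cell classes (columns) of the control library, with the CPM printed in each cell and the colour giving log10(CPM + 1). Stard4 is highest in Leydig-like cells (54.3 CPM), whereas Npc2 (711 CPM), Abca1 (123 CPM), Lrp8 (19.1 CPM), Npc1 (29.5 CPM) and Apoe (11495 CPM) are highest in immune-like and Soat1 (159 CPM) in rete testis-like cells.

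The Leydig-like cells were not uniform. They fell into 2 clusters, one of 125 cells led by steroidogenic genes such as *Cyp11a1* and *Star*, and one of 191 cells led by *Nppc* and *Vsnl1*, which had none of the 8 Leydig markers among its 10 leading genes but had 5 of them in at least 25% of its cells and a mean log2 ratio of 1.33 over the 8 against all other cells. *Cyp11a1* was at 10973 CPM (10858 to 11089) in the first and 2708 CPM (2646 to 2772) in the second cluster, *Insl3* at 669 CPM (641 to 698) and 299 CPM (278 to 320.5), and *Star* at 2095 CPM (2044 to 2146) and 437 CPM (412 to 463). *Cyp11a1*, *Star* and *Insl3* of the second cluster were above their levels in Sertoli-like, germ-like and interstitial-like cells. In the second cluster *Cyp11b1*, however, was at 0 of 2636628 UMIs, which at 3 counts allows up to 1.14 CPM. These genes are among the 8 markers by which the cluster was named, so their levels do not test its name. Levels of the synthesis genes followed the same division, at 9832 CPM (9723 to 9942) in the *Cyp11a1* and *Star* cluster and 2959 CPM (2893 to 3025) in the *Nppc* and *Vsnl1* cluster, a ratio of 3.32-fold (3.24 to 3.41). The *Nppc* and *Vsnl1* cluster alone was still 3.93-fold (3.82 to 4.05) above Sertoli-like, 4.33-fold (4.18 to 4.47) above germ-like and 3.46-fold (3.37 to 3.57) above interstitial-like cells.

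All 18 synthesis enzymes were at least 2-fold higher in the *Cyp11a1* and *Star* than in the *Nppc* and *Vsnl1* cluster. With *Insig1*, *Scap* and *Apoe*, 21 of the 27 members were higher, compared with 6.71% of all genes, and 0 were lower, compared with 17.4%. The enzymes ranged from 2.04-fold (1.82 to 2.28) for *Sqle* to 5.31-fold (4.18 to 6.83) for *Tm7sf2*, and *Fdps* went from 773 CPM (739 to 807) to 2924 CPM (2865 to 2985). *Apoe* differed 3.74-fold (3.42 to 4.1), from 225 CPM (207 to 244) to 842 CPM (809.9 to 874). The other transport genes differed less. *Stard4* and *Npc2* went the way of the enzymes, at 1.84-fold (1.44 to 2.36) and 1.51-fold (1.38 to 1.66). *Abca1* was at 74.2 CPM (65 to 84.3) in the *Cyp11a1* and *Star* cluster and 96 CPM (84.5 to 109) in the *Nppc* and *Vsnl1* cluster, and *Soat1* at 90.9 CPM (80.7 to 102) and 119 CPM (107 to 133). Their ratios of 0.773-fold (0.644 to 0.927) and 0.761-fold (0.646 to 0.895) ran opposite to the enzymes, with intervals that include the median of all genes, 0.843-fold. *Npc1* was at 10.1 CPM (6.91 to 14.3) and 11.4 CPM (7.68 to 16.2), with overlapping intervals. In the *Nppc* and *Vsnl1* cluster alone, *Ebp* was 1.23-fold (1.07 to 1.41) and *Scap* 0.986-fold (0.851 to 1.14) the Sertoli-like level, and *Fdft1* was 0.822-fold (0.721 to 0.934) the germ-like level. For these 3 genes the Leydig-like excess over those classes thus lay mainly in the *Cyp11a1* and *Star* cluster.

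**Figure D3:**
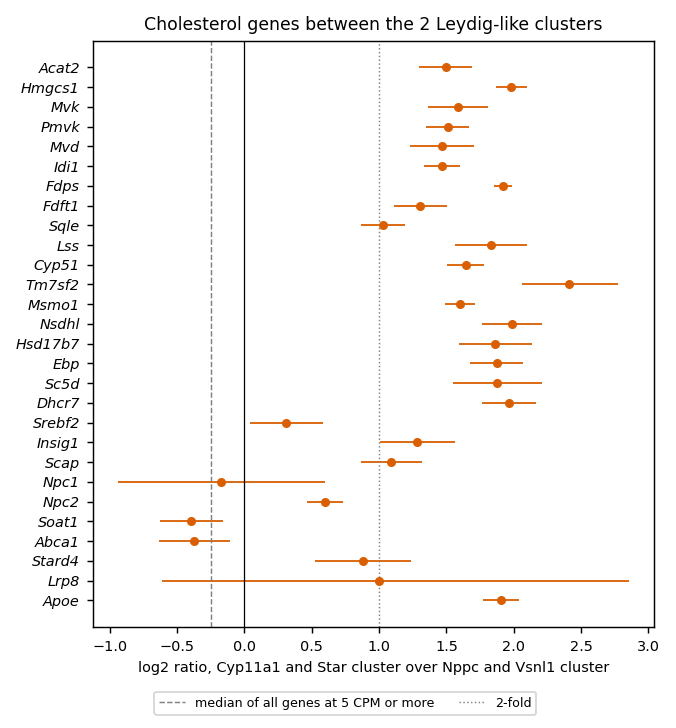
Log2 ratio of the level of each cholesterol gene in the Cyp11a1 and Star cluster over the Nppc and Vsnl1 cluster of Leydig-like cells, with bars for exact 95% intervals of counting error, a dotted line at 2-fold and a dashed line at the median of all genes (-0.25). All 18 synthesis enzymes lie to the right of the 2-fold line, whereas Soat1 and Abca1 lie to the left of 0.

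Thinning each cell to 5000 UMIs removed the difference in depth between cells. The Leydig-like cells then held a median of 26 UMIs of the synthesis genes, with 0 in the lowest and 107 in the highest cell, whereas the median was 3 in Sertoli-like (0 to 20), 3 in germ-like (0 to 12) and 3 in interstitial-like cells (0 to 34). In the *Cyp11a1* and *Star* cluster the median was 45.5 UMIs (14 to 107), and 121 of 124 cells were above the highest Sertoli-like cell, all 124 above the highest germ-like cell and 102 above the highest interstitial-like cell. The *Nppc* and *Vsnl1* cluster had a median of 9 UMIs (0 to 64), and 49, 76 and 21 of its 189 cells passed the same limits. Most of its cells thus lay within the range of the other classes.

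**Figure D4:**
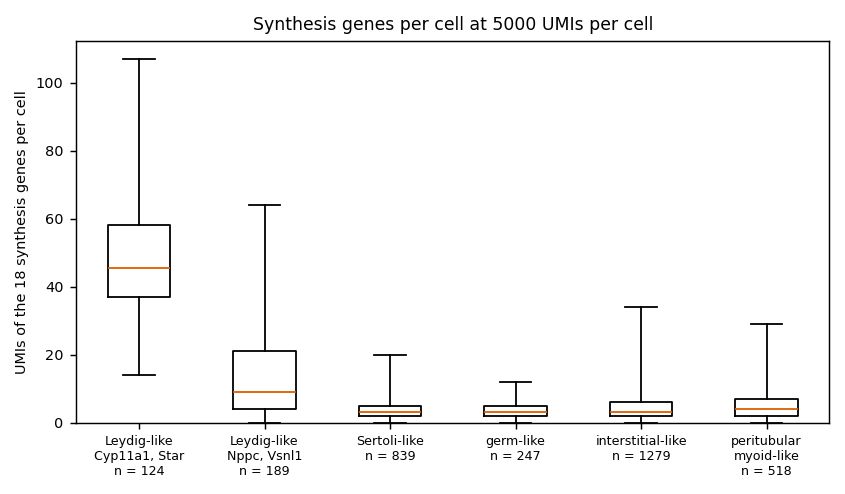
UMIs of the 18 synthesis genes per cell after each cell was thinned to 5000 UMIs, in the 2 Leydig-like clusters and in Sertoli-like, germ-like, interstitial-like and PTM-like cells, with boxes for quartiles, lines for medians and whiskers to the lowest and highest cell. The medians are 45.5 and 9 in the Leydig-like clusters and 3 in Sertoli-like, germ-like and interstitial-like cells.

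Within the *Nppc* and *Vsnl1* cluster the synthesis genes varied with *Cyp11a1*. The 69 cells without a *Cyp11a1* UMI at this depth had a median of 5 UMIs of synthesis genes (0 to 15), and the 40 cells with 1 to 9 *Cyp11a1* UMIs a median of 4 (1 to 22). The median was 18 (0 to 42) in the 40 cells with 10 to 29 *Cyp11a1* UMIs, and 32.5 (10 to 64) in the 40 cells with 30 or more. In the *Cyp11a1* and *Star* cluster 120 of 124 cells had 30 or more *Cyp11a1* UMIs, and their median was 47 (14 to 107). Across cells, Pearson's r between synthesis genes and *Cyp11a1* was 0.82 in the *Nppc* and *Vsnl1* cluster (189 cells) and 0.37 in the *Cyp11a1* and *Star* cluster (124 cells). The relation was not particular to *Cyp11a1*. Between synthesis genes and the sum of 8 genes of fatty acid synthesis, r was 0.77 and 0.37 in the same clusters. Upper and lower parts of the pathway varied together, with r of 0.78 and 0.69 in these 2 clusters, whereas r was 0.53 over 1279 interstitial-like cells, 0.57 over 518 PTM-like cells, 0.34 over 839 Sertoli-like cells and 0.05 over 247 germ-like cells. The 2 parts were counted at means of 8.14 and 6.07 UMIs per cell in the *Nppc* and *Vsnl1* cluster and of 29.2 and 19.2 in the *Cyp11a1* and *Star* cluster. In the other classes the means were much lower, at 2.41 and 1.91 UMIs in interstitial-like, 2.75 and 2.14 in PTM-like, 1.66 and 2.12 in Sertoli-like and 1.87 and 1.72 in germ-like cells. Counting noise lowers r at such low counts, its part in these differences was not tested, and no order of the classes is read from r. All these cells share 1 library and a fixed total of 5000 UMIs, and the correlations are descriptions without a test.

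**Figure D5:**
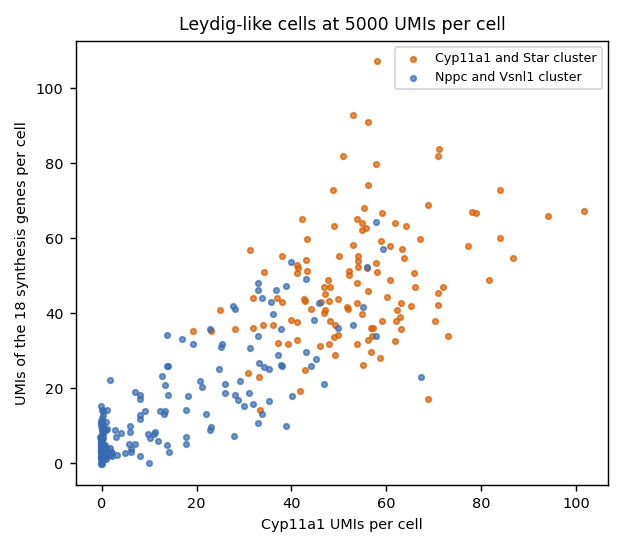
UMIs of the 18 synthesis genes (vertical axis) against UMIs of Cyp11a1 (horizontal axis) in each Leydig-like cell thinned to 5000 UMIs, with points spread by up to 0.3 UMI to show ties and coloured by cluster. The 69 cells of the Nppc and Vsnl1 cluster at 0 Cyp11a1 UMIs have at most 15 UMIs of synthesis genes, and the 120 cells of the Cyp11a1 and Star cluster with 30 or more have 14 to 107.

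The *Nppc* and *Vsnl1* cluster also held all 36 Leydig-like cells scored as S phase and 28 of the 30 scored as G2/M from expression. Its 127 cells scored as G1 had 4059.7 CPM (3961 to 4159.9) of synthesis genes, its 36 cells scored as S had 1252 CPM (1162 to 1347) and its 28 cells scored as G2/M had 1326 CPM (1224 to 1433). *Cyp11a1* was at 4127, 393 and 743 CPM in the same cells. *Top2a*, a gene of dividing cells, was at 8.17, 241 and 858 CPM. *Top2a* is itself in the gene list of the G2/M score, so its differences follow in part from the scoring. In the *Cyp11a1* and *Star* cluster 123 of 125 cells scored as G1. Interstitial-like cells had 912 CPM (887 to 938), 882 CPM (854 to 909.6) and 719 CPM (690.0 to 748) of synthesis genes in G1, S and G2/M, and Sertoli-like cells had 759 CPM (737 to 781), 782 CPM (752 to 814) and 714 CPM (686 to 742). The highest and lowest of these levels differed over 3-fold in the *Nppc* and *Vsnl1* cluster, and less than 1.5-fold in interstitial-like and in Sertoli-like cells. Scores of single cells are calls from expression and depend on depth, so they do not by themselves show cycling.

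Of 27 other genes of cholesterol metabolism, 18 passed the CPM minimum. At least 2-fold higher in Leydig-like cells were 5 of them over Sertoli-like, 8 over germ-like and 5 over interstitial-like cells, compared with 11.6%, 29.9% and 9.92% of all genes. At least 2-fold lower were 2, 2 and 3 in the same order, compared with 17.7%, 22% and 16.6%, so that the last count was at the share of all genes. *Scarb1*, the receptor that takes cholesterol esters from high-density lipoprotein, was at 934 CPM in Leydig-like, 63 CPM in Sertoli-like, 20.3 CPM in germ-like and 44.3 CPM in interstitial-like cells. *Acat1*, the mitochondrial thiolase, was at 255, 115, 73.8 and 138 CPM, and *Lrp1*, a lipoprotein receptor, at 88.7, 27.5, 8.6 and 208 CPM. *Abcg1*, an exporter of cholesterol, had 0 of 5805785 UMIs in Leydig-like cells, which at 3 counts allows up to 0.517 CPM, and was at 16.7 CPM in Sertoli-like and 19.8 CPM in germ-like cells. A list of 6 genes of steroid synthesis held *Star*, which delivers cholesterol to mitochondria, *Tspo*, a protein of the outer mitochondrial membrane, *Cyp11a1*, the enzyme of the first step, *Fdx1* and *Fdxr*, which supply it with electrons, and *Por*, which supplies electrons to P450 enzymes of the endoplasmic reticulum. Of these 6 genes, 5 were at least 2-fold higher in Leydig-like cells than in each of the 3 other classes, beside the same shares of all genes, and *Tspo* was the exception, at 95.8, 72.1, 48.8 and 91.7 CPM. *Star* and *Cyp11a1* were also among the markers that named the Leydig-like clusters, so their higher levels follow in part from the naming. Of 8 genes of fatty acid synthesis, 5, 6 and 7 were at least 2-fold higher in Leydig-like than in Sertoli-like, germ-like and interstitial-like cells, compared with 11.6%, 29.9% and 9.92% of all genes. *Fads2*, a fatty acid desaturase, was at 588 CPM in Leydig-like, 67.2 CPM in Sertoli-like, 11.4 CPM in germ-like and 31.6 CPM in interstitial-like cells, whereas *Fasn*, the fatty acid synthase, was at 61.7, 92.5, 31.6 and 52.5 CPM.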

How the data were processed

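Single-cell RNA of 1 control library of testes was analysed. The authors aligned reads to mm10, extended by the sequence of YFP, with Cell Ranger, and the deposited values are raw UMI counts of each feature in each barcode. The file header names version 3.1.0, the submitters' processing notes versions 3.0.2 and 3.1.0, and the methods a later one. How reads on the opposite strand and reads matching several loci were counted is not given in the sources used here. The members and gene lists were chosen with earlier results of these data known.

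Barcodes with fewer than 200 genes (372), 204 presumed doublets (4.04% of those left, ranked by how many simulated doublets were among the nearest neighbours) and 1025 cells beyond 3 median absolute deviations on UMIs, genes, mitochondrial or ribosomal-protein share were removed. The 3820 kept cells, with 2299 to 53807 UMIs each, were normalized with SCTransform (sctransform 0.4.2), regressing out cell-cycle scores and mitochondrial share, and clustered with Seurat 5.3.0 in R 4.3.3 on 2973 variable genes, 30 components and resolution 0.8. Variable genes left out were 27, comprising members and other cholesterol genes. A cluster took the name of the marker list with the highest mean log2 ratio against all other cells, if at least 1 and with 3 markers in at least 25% of its cells. It stayed unnamed if its 10 leading genes held more markers of another list than of its own (1 cluster of 90 cells, led by *Emcn*), or none of its own while its median UMIs were less than the median of all kept cells divided by 3 (1 cluster of 63 cells nearest to Sertoli cells).

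Counts were summed per class and divided by the class's UMIs (CPM). Intervals at 95% are exact Poisson for levels and exact conditional binomial for ratios of 2 classes. For a count of 0 the limit printed is that of 3 counts. Members were described in full when at least 2-fold apart between Leydig-like cells and another class. For shares per cell and UMIs per cell, cells were thinned to 5000 UMIs, which left out 3 Leydig-like, 15 Sertoli-like, 1 germ-like and 67 interstitial-like cells. The ratio and call steps were tested on simulated data. Copies of transcript ends were searched over 500 bases at 95% identity over at least 90 bases. Gene positions are from GENCODE on GRCm38 and upstream sequences from RefSeq. Other steps ran in Python 3.11.15 with scipy 1.17.1, numpy 2.4.6, scikit-learn 1.9.0 and pandas 2.3.3. Alternatives were other outlier limits, doublet rates, resolutions, normalizations, variable genes, class assignments, scalings, depths and folds.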

Additional observations from a re-analysis of the deposited data

Results flagged for a closer look

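The 372 barcodes with fewer than 200 genes, which entered no comparison, held 46 UMIs of the 28 cholesterol genes among 1409901 UMIs, that is 32.6 CPM (23.9 to 43.5), above the 3 counts that a count of 0 allows. They came from 19 of the 28 genes, with 7 UMIs each for *Fdps* and *Hmgcs1* and 4 for *Scap*.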

How the results depend on the processing

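The summed level of the 18 synthesis genes was higher in Leydig-like than in Sertoli-like, germ-like and interstitial-like cells under every alternative run, whereas its size moved by more than the counting interval under several. The ratios, as reported 8.92, 9.81 and 7.86 in this order, became 10.8, 11.9 and 9.5 when all variable genes were used for clustering, which named 228 instead of 316 cells Leydig-like. They were 10.4, 11.4 and 8.94 with cells within 5 median absolute deviations, 10.2, 11.2 and 8.88 without an outlier filter, and 9.91, 11 and 8.67 with each cell classed by itself. They were 7.48, 8.11 and 6.58 as a mean over cells of each cell's CPM, 7.36, 7.73 and 6.44 at 5000 UMIs per cell, and 6.89, 8.27 and 6.53 at 3000. The ratio over germ-like cells was 8.77 without mitochondrial, ribosomal-protein and hemoglobin genes, and that over interstitial-like cells 7.64 at resolution 1.2. With alternatives chosen after seeing the data, the *Cyp11a1* and *Star* cluster alone gave 13.1, 14.4 and 11.5, and the *Nppc* and *Vsnl1* cluster alone 3.93, 4.33 and 3.46. The cause of these shifts was not tested. The number of members called higher stayed at 22 to 24 over Sertoli-like cells, and at 24 to 25 over germ-like and over interstitial-like cells. These ranges include the alternative that called members at a fold of 1.5 in place of 2. The exception among the alternatives was the *Nppc* and *Vsnl1* cluster alone, which gave 21, 24 and 20. Shares of all genes are not given for the alternatives, and those printed above belong to the classes as reported. The number called lower went from 0 to 1 over Sertoli-like and over interstitial-like cells, and from 1 to 0 over germ-like cells, at 3000 UMIs, and from 0 to 1 over Sertoli-like and interstitial-like cells with a fold of 1.5. Of the 84 ratios of a member to another class, 73 were past 2-fold as reported, 2 of these (*Npc1* and *Lrp8* over germ-like cells) fell under it in at least 1 alternative, the single Leydig-like clusters aside, 4 others passed it and 0 reversed. No paired analysis was possible because there was 1 library, and no cell can stand for an animal. Values of *Lrp8*, *Npc1* and of the small immune-like and rete testis-like classes are limited by depth.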
